A study of Mus musculus with 16 samples.

Results

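Colon RNA of Il10-/- mice fed oleic acid was compared with that of Il10-/- mice fed the control diet, with 2 RNA pools on each diet, so 4 of the 16 arrays of the study carry the comparison. The pools were chosen by their titles. The Il10-/- mice were of the strain B6.129P2-IL10<tm1Cgn>/J, a targeted deletion of interleukin 10 on a C57BL/6J background, and C57BL/6J mice on the same diets gave another 4 arrays that are used here for comparison. All mice were male, 28 to 35 days old at the start, individually housed and given Enterococcus strains with a complex intestinal flora by mouth. The control diet (CO) was AIN-76A, and the oleic acid diet (OA) was its fat-free form with 1% corn oil, to which linoleic and alpha-linolenic acid had been added, and 3.7% oleic acid. Both held 5% fat by weight, were isocaloric, were rationed to the mean intake of the Il10-/- mice and were fed for 6 weeks. Colon was taken after 77 days of age, following an overnight fast and a short refeeding. Each genotype had 6 mice on each diet, and colon RNA of 2 to 3 of these was mixed in equal amounts, labelled with Cy3 and hybridised beside a Cy5-labelled common reference from gut, kidney, liver and fetuses of Swiss mice. Pooling leaves no view of single mice, and whether pool 1 and pool 2 came from separate mice is not said in the labels, so a p-value reflects array-to-array spread only, which may be technical.

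Interleukin 10 restrains the response of macrophages and T cells to gut bacteria, and mice without it develop colitis once their gut is colonised. Oleic acid is a monounsaturated fatty acid that animals also make from stearate with the desaturase Scd1, and the study's labels call the OA diet a control for its polyunsaturated fatty acid diets. Dietary fatty acids reach the nucleus through PPAR receptors, which drive genes of fatty acid oxidation, and they restrain SREBP factors, which drive genes of lipid synthesis. The comparison asks how far the OA diet as a whole set the colon's transcripts apart from those on the base diet. Its corn oil also had linoleic and alpha-linolenic acid added, so oleic acid cannot be told apart from the rest of the fat.

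Values are log2 ratios of sample to reference RNA, written as levels, and a difference is the mean level on OA minus the mean level on CO, with the standard error (SE) of a limma model over all 16 arrays. Base 2 was not stated by the submitters and is assumed. The direction of the ratio was settled from 13 genes of kidney and liver, whose median level lay below 0 on 16 of 16 arrays. On each array 326 to 985 features shared a single value, and these were treated as unmeasured. They included features of the mucin gene Muc2, the carbonic anhydrase gene Car1 and the water channel gene Aqp8, so that 4 of 13 goblet cell markers and 9 of 16 colonocyte markers could be tested, and the tissue label could not be checked on those defining genes. After this, 24951 genes and unnamed features were tested, 17441 of them with a gene symbol. The number of arrays limits the precision, and no spot brightness was at hand.

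The Il10-/- and C57BL/6J arrays were set apart by an inflammation gene, whose level does not test the deletion itself. S100a9, which encodes a neutrophil calcium-binding protein, had levels of 2.08 and 2.87 in the Il10-/- CO pools and 2.26 and 2.83 in the OA pools, against means of -2.02 ± 0.41 (SD, n = 2) and -1.82 ± 0.48 in the C57BL/6J groups. Il10 itself had levels of 0.59 and 0.77 in the CO pools and 0.73 and 0.58 in the OA pools of Il10-/- mice, a difference of -0.03 ± 0.11. In C57BL/6J mice it averaged -0.21 ± 0.04 and -0.11 ± 0.08. The place of its probe relative to the deleted part is not given in the sources used here, so this level checks nothing about the deletion. The source name of Il10-/- OA pool 1 reads EPA while its title reads OA. The pool was kept as OA by its title, and results are also given without it. Its values correlated across 21628 genes at 0.972 with OA pool 2 and at 0.974 and 0.972 with the CO pools, and at 0.956 and 0.947 with the Il10-/- pools on eicosapentaenoic acid (EPA). The 2 EPA pools correlated with each other at only 0.940, so these values do not settle which label is right.

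No transcript passed the test between the OA and the CO diet in the Il10-/- colon. Of 24951 tests, 0 (0%) had a Benjamini-Hochberg adjusted p under 0.05, and the smallest adjusted p was 0.99992. At an unadjusted p under 0.05 stood 386 genes (1.55%), 201 with higher levels on OA (0.806%) and 185 with lower levels (0.741%). The 95% interval of the difference lay within 2-fold in either direction for 24661 genes (98.8%) and within 1.5-fold for 22502 (90.2%). The median size of a difference was 0.064, and 99% of differences were smaller than 0.36.

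Pools on different diets were no further apart than pools on the same diet. The 2 OA pools differed from each other by a median of 0.096 over genes, and the 2 CO pools by 0.097. The 4 pairs of an OA with a CO pool differed by 0.089 to 0.092. Both OA pools lay outside the range of the CO pools, on the same side, for 7307 genes (29.3%), above it for 3854 (15.4%) and below it for 3453 (13.8%).

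**Figure D1:**
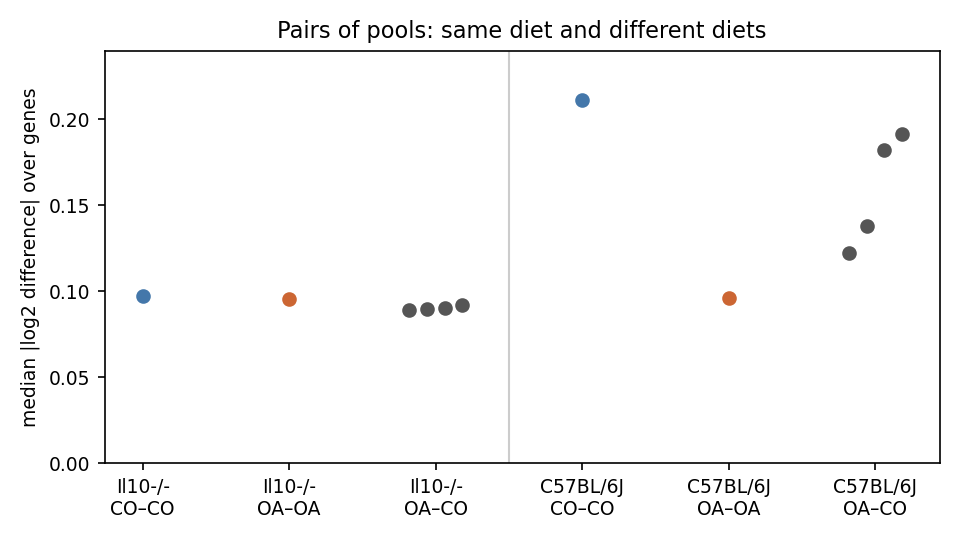
Each point is a pair of pools, and the vertical axis gives the median absolute log2 difference between them over 21628 genes measured on all arrays, for pairs within CO, within OA and between the diets. In Il10-/- mice the OA–CO pairs (0.089 to 0.092) lie below the pair of CO pools (0.097) and the pair of OA pools (0.096), whereas the 2 C57BL/6J CO pools differ by 0.21.

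Among genes with an unadjusted p under 0.05 and pools that did not overlap, the 12 largest positive differences belonged in part to immune genes, and none passed the test. The smallest unadjusted p was that of Pcdh8, which encodes a protocadherin, a cell adhesion protein, with levels of -0.52 and -0.69 in the CO pools and 0.03 and 0.05 in the OA pools (difference 0.65 ± 0.11, adjusted p = 0.99992). Chrna5, a subunit of nicotinic acetylcholine receptors, had the largest of these differences, 0.69 ± 0.17, from -0.14 and -0.33 on CO to 0.19 and 0.72 on OA. Serpina3n, a secreted inhibitor of serine proteases made in the acute phase, stood at -0.64 and -0.26 on CO and 0.33 and -0.13 on OA. In all 3 genes the OA pools lay above the CO pools, but the Serpina3n and Chrna5 pools of a diet were spread at least as widely as the gap between diets.

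Immunoglobulin and macrophage genes were among the 12 largest positive differences. The IgG3 heavy chain gene Ighg3 had levels of 0.87 and 0.60 on CO and 1.22 and 1.35 on OA (difference 0.55 ± 0.21). Mrc1, the mannose receptor of tissue macrophages, had -0.26 and -0.36 on CO against 0.13 and 0.15 on OA (0.45 ± 0.14). Chil4, a chitinase-like protein secreted by macrophages and epithelia, had 0.01 and 0.01 against 0.70 and 0.32 (0.50 ± 0.12). These groups did not overlap, and for Mrc1 the 2 pools of each diet lay within 0.10 of each other. The others were the IgM heavy chain gene Ighm (0.49 ± 0.15), the kappa chain variable genes Igkv19-93 (0.49 ± 0.18) and Igkv4-91 (0.47 ± 0.14), and Derl3 (0.42 ± 0.12), which serves protein quality control in the endoplasmic reticulum of secretory cells. The 4 features of Ighm disagreed, with differences from -0.04 to 0.93. Tssk3 (0.46 ± 0.11) and Eqtn (0.43 ± 0.18) are genes of the male germ line.

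By the same choice (unadjusted p under 0.05, pools that did not overlap), the 12 largest negative differences were mostly of genes far below the reference. Among them Trim50, an E3 ubiquitin ligase, had the largest, with levels of 0.36 and 0.28 on CO and -0.19 and -0.41 on OA (difference -0.62 ± 0.20). Gpr84, a receptor for medium-chain fatty acids on myeloid cells, had 0.68 and 0.76 on CO against 0.01 and 0.34 on OA (-0.55 ± 0.13). Ldlrad1, which encodes a membrane protein with an LDL receptor class A domain, had 0.65 and 0.67 against 0.16 and 0.10 (-0.52 ± 0.13). The diets did not overlap in these 3 genes. The others included the kidney gene Umod (-0.56 ± 0.22), the muscle glycogen phosphorylase gene Pygm (-0.53 ± 0.15), the liver apolipoprotein gene Apoc3 (-0.48 ± 0.22) and the arginase gene Arg1 (-0.47 ± 0.18). The remaining genes were the cytochrome P450 gene Cyp2c23 (-0.52), Arhgap40 (-0.51), Pramel48 (-0.49), the striated muscle gene Itgb1bp2 (-0.46) and 1300017J02Rik (-0.44). Of the 12 lowest, 7 had a mean level below -1, and of the 12 highest, 0 did.

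**Figure D2:**
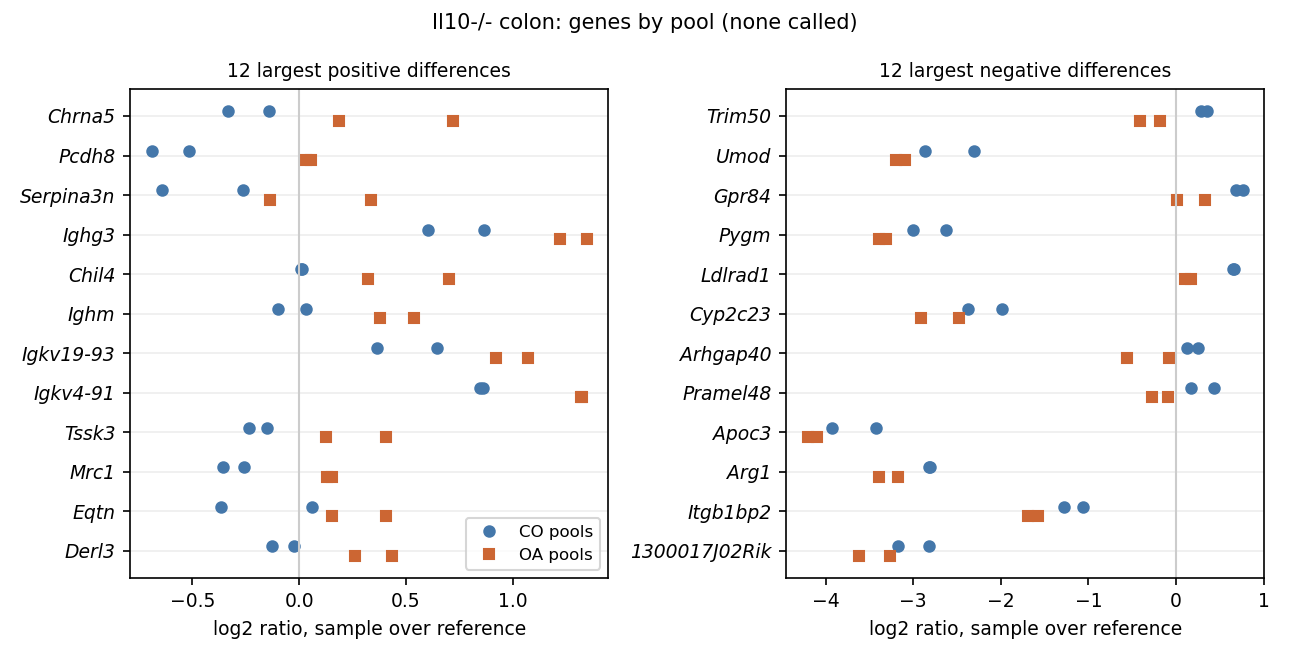
Levels (log2 ratio of sample to reference, horizontal axis) of the 12 largest positive and the 12 largest negative differences among genes with an unadjusted p under 0.05 and pools that do not overlap, with circles for the 2 CO pools and squares for the 2 OA pools. The genes were chosen for this separation, which holds for 29.3% of all genes tested, and 7 of the 12 on the right lie below -1.

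Differences leaned with a gene's level against the reference. With the level taken from the 12 other arrays, the 184 genes below -3 had a median difference of -0.22, the 242 genes between -3 and -2 of -0.13, and the 16256 genes between -0.5 and 0.5 of 0.006. Above these, the 1043 genes between 0.5 and 1 had a median difference of 0.058 and the 297 genes over 1 of 0.099. Low genes were thus lower still and high genes higher still on OA. Most of this slope came with CO pool 1: against that pool alone the lowest genes had a median difference of -0.37 and those over 1 of 0.16, and against CO pool 2 alone -0.085 and 0.045. The standard deviation of the values was 0.575 on the array of CO pool 1 and 0.627 to 0.630 on the other 3. The slope was also present in the C57BL/6J arrays, from -0.27 to 0.28. Of the 1140 genes below -1, 73.2% had a negative difference, 24 of them at an unadjusted p under 0.05, and 0 had a positive difference at that p.

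**Figure D3:**
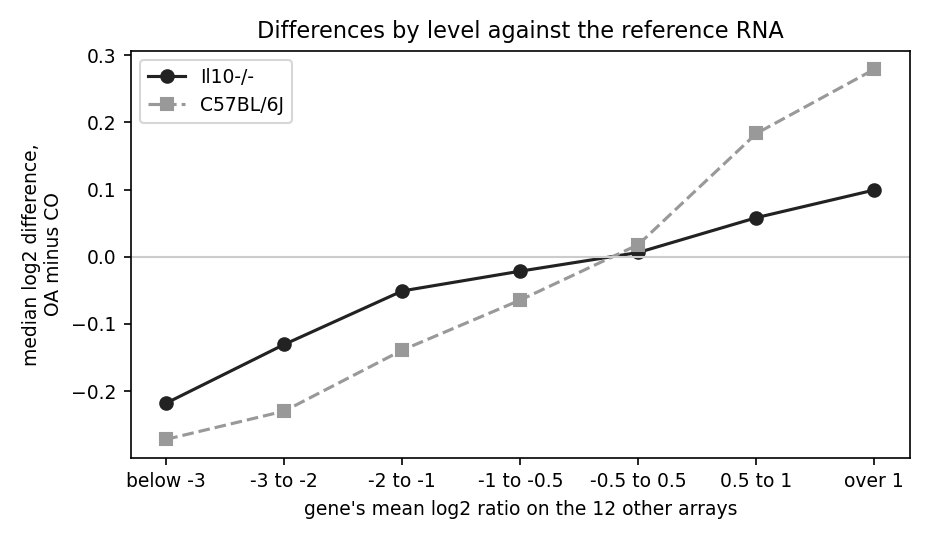
Median log2 difference between OA and CO (vertical axis) for genes grouped by their mean level against the reference on the 12 arrays outside the Il10-/- comparison (horizontal axis, 184 to 16256 genes per point), in Il10-/- mice (solid line) and C57BL/6J mice (dashed line). In Il10-/- mice it runs from -0.22 for the lowest genes to 0.099 for the highest; the C57BL/6J line takes its level in part from the same arrays as its differences.

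The inflammation genes named next had differences between -0.15 and 0.16. Their standard errors reached 0.34, so equal levels on the diets are not shown. Il1b, the inflammasome cytokine, had levels of 2.94 and 3.91 on CO and 3.23 and 3.39 on OA (difference -0.12 ± 0.34). Tnf, the macrophage cytokine, had 1.48 and 1.74 against 1.5 and 1.8 (0.04 ± 0.13, 95% interval -0.25 to 0.33). S100a8, the partner of S100a9, had 1.27 and 2.31 against 1.90 and 1.89 (0.11 ± 0.31). For Il1b and S100a8 the OA pools fell between the CO pools, and the pools of the CO diet were about a log2 unit apart. Ifng had a difference of 0.07 ± 0.16, Nos2, the inducible nitric oxide synthase, of -0.15 ± 0.21, Lcn2, an epithelial iron-sequestering protein, of 0.16 ± 0.26, and Ptgs2, the inducible cyclooxygenase, of -0.10 ± 0.14. Other cytokine and chemokine genes had larger differences of both signs, none called, among them Ltb (0.43), Cxcl12 (0.32), Il6 (-0.26) and Cxcl5 (-0.35).

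Interferon gamma targets varied more between the CO pools than between the diets. Over the 20 tested genes of this response the mean level was 0.82 and 1.21 in the CO pools and 1.00 and 1.19 in the OA pools. The median difference was 0.077, against 0.005 over all genes, and 16 of 20 differences lay above 0, against 52.2% of all genes. In 1 of 20 genes, Irgm2, both OA pools lay above both CO pools (15.4% of all genes did). Without CO pool 1 the median was -0.11, and without CO pool 2 it was 0.27, so its sign depended on which CO pool was used. Ido1, the tryptophan-degrading enzyme (0.10 ± 0.28), and the T cell chemokine Cxcl9 (0.10 ± 0.28) had pools that overlapped. Of the 18 tested inflammatory cytokines 7 had a positive difference, and of the 16 tested neutrophil markers 10 did, with medians of -0.020 and 0.042. Both signs turned with the CO pool used: without CO pool 1 the neutrophil median was -0.053, and without CO pool 2 the cytokine median was 0.043. The lowest p among the neutrophil markers was that of Camp, the cathelicidin gene, at -0.24 and -0.24 on CO and 0.35 and 0.01 on OA (0.42 ± 0.16), a gene whose pools did not overlap.

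Macrophage markers had mostly higher levels on OA, without any passing the test. Of 18 tested markers 16 had a positive difference, in 13 both OA pools lay above both CO pools (15.4% of all genes did) and in 0 below. C1qa, the A chain of the complement starter C1q, which tissue macrophages make, had levels of 1.16 and 1.37 on CO and 1.66 and 1.71 on OA (difference 0.42 ± 0.11, adjusted p = 0.99992). The C chain gene C1qc had 0.90 and 1.08 against 1.30 and 1.43 (0.38 ± 0.10), and the B chain gene C1qb 0.72 and 0.96 against 1.05 and 1.06 (0.22 ± 0.13). In these 3 genes, as in Mrc1, the OA pools were above both CO pools. The IgG receptor Fcgr1 had a difference of 0.32 ± 0.13, the adaptor Tyrobp of 0.34 ± 0.18 and Aif1, a calcium-binding protein of macrophages, of 0.32 ± 0.16. The chemokine receptor Ccr2 had a difference of 0.13 ± 0.16. The 2 members below 0 were Ly6c1 (-0.14 ± 0.21) and the endotoxin co-receptor Cd14 (-0.14 ± 0.22). In bulk tissue, more cells of a type and more RNA per cell cannot be told apart.

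The median of the macrophage markers was 0.17, beside 0.005 over all genes. On the 12 other arrays the list averaged 0.21, from -0.20 in a C57BL/6J CO pool to 0.69 in an Il10-/- EPA pool. Genes between -0.5 and 0.5 there had a median difference of 0.006, those between 0.5 and 1 of 0.058 and those over 1 of 0.099. A list mean does not place its members in 1 of these bins, and the part of the level trend in the list's median was not tested. The list's median was 0.14 with quantile normalization, 0.15 with every array at the same standard deviation, 0.14 without CO pool 1, 0.28 without CO pool 2 and 0.18 without OA pool 1. With each of the 4 pools left out in turn, 15 or 16 of the 18 markers had a positive difference. In the full set, 4 markers stood at an unadjusted p under 0.05, all higher, where 0.806% of all genes did. The 14 tested complement genes, which share the 3 C1q chains with the macrophage list, had a median of 0.20, with 13 differences above 0. Both OA pools were higher in 9 (15.4% of all genes) and lower in 1 (13.8%). Outside C1q, genes above 0 included C4b (0.32 ± 0.15) and C1s1 (0.17 ± 0.13) of the classical pathway. Others were the inhibitor Serping1 (0.34 ± 0.18) and Cfb of the alternative pathway (0.33 ± 0.25). Cfi, a liver-made protease that is far below the reference at -4.59 to -4.93, was the exception (-0.38 ± 0.21).

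Plasma cell markers and immunoglobulin genes also leaned upward on OA. Of 11 tested plasma cell markers 9 had a positive difference, 7 had both OA pools above both CO pools (15.4% of all genes did) and the median was 0.20. The same markers had a median of 0.19 in C57BL/6J mice, with 9 of 11 above 0. On the 12 other arrays the list averaged 0.26, and the part of the level trend in its medians was not tested. Pou2af1, a coactivator of immunoglobulin transcription, had levels of 0.25 and 0.49 on CO and 0.75 and 0.80 on OA (0.40 ± 0.16), and Mzb1, a chaperone of antibody-secreting cells, 0.70 and 0.90 against 1.11 and 1.17 (0.35 ± 0.17). Igha, the IgA heavy chain gene, had 0.87 and 1.14 against 1.40 and 1.46 (0.43 ± 0.26). The OA pools were above the CO pools in each of these, whereas Sdc1, the syndecan of plasma cells and epithelium, had 1.12 and 1.41 against 1.38 and 1.13. The median stayed above 0 without each pool in turn, between 0.13 without CO pool 1 and 0.32 without CO pool 2.

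All 22 immunoglobulin chain genes that were tested, a list drawn up after their values were seen, had a positive difference, with a median of 0.30 and a range of 0.026 to 0.55. In 14 of them both OA pools were higher (15.4% of all genes) and in 0 both were lower (13.8%). Probes for such similar genes can share targets, so they do not count as separate measurements. The same genes leaned upward in the C57BL/6J mice, where 18 of 22 differences were above 0 with a median of 0.39. For B cell markers the median over 10 was 0.067. Cd79b, a chain of the B cell receptor, had 0.49 and 0.39 on CO against 0.84 and 0.88 on OA (0.42 ± 0.21) while its partner Cd79a had a difference of 0.01 ± 0.12.

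**Figure D4:**
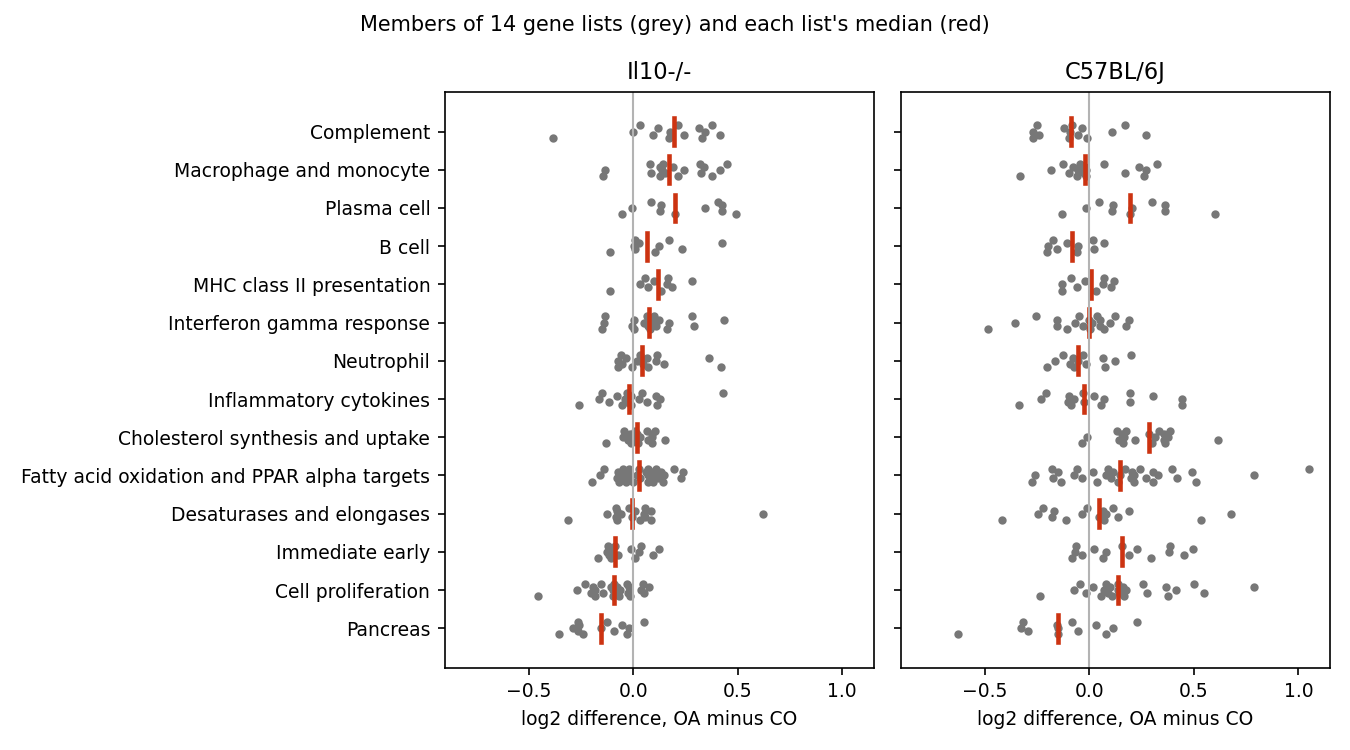
Log2 difference between OA and CO (horizontal axis) of each tested member (grey points) and the median (red bar) of 14 gene lists, with Il10-/- mice on the left and C57BL/6J mice on the right. In Il10-/- mice the medians of complement, macrophage and plasma cell genes are 0.17 to 0.20, those of the 3 lipid lists shown lie between -0.004 and 0.029, and those of proliferation and pancreas genes are -0.092 and -0.15.

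The lists of lipid genes had medians between -0.004 and 0.056, and 1 of their members, Apoc3, stood at an unadjusted p under 0.05. Scd1, which makes oleic acid, had levels of -0.91 and -1.36 on CO and -0.38 and -0.66 on OA. Its difference of 0.62 ± 0.61 had a 95% interval from -0.71 to 1.95, wider than those of the desaturases and elongases named next. The delta-5 and delta-6 desaturases Fads1 (-0.06 ± 0.21) and Fads2 (-0.004 ± 0.13) and the elongase Elovl6 (0.05 ± 0.20) were measured more tightly. Over the 17 tested desaturases and elongases, 8 differences lay above 0 and the median was -0.004, with Elovl2, an elongase of polyunsaturated fatty acids, lowest at -0.31 ± 0.17. The second stearoyl desaturase gene, Scd2, was unmeasured on part of the 4 arrays.

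Among targets of SREBP factors, Srebf1 had a difference of 0.18 ± 0.16, Fasn, the fatty acid synthase, of 0.06 ± 0.22, Hmgcs1, which opens the mevalonate pathway, of 0.15 ± 0.13, and Sqle, the squalene epoxidase, of 0.09 ± 0.14. Hmgcs1 had levels of 0.62 and 0.54 on CO and 0.78 and 0.68 on OA, and in Hmgcs1, Sqle and Srebf1 both OA pools lay above both CO pools. Of 19 tested genes of cholesterol synthesis, 13 differences were positive, from -0.13 to 0.15 in all, with a median of 0.017. All 19 had a 95% interval within 2-fold. The median was -0.009 with quantile normalization. Over 23 genes of fatty acid and triglyceride synthesis the median was 0.023, and it was -0.029 without CO pool 2. Gpam, which starts glycerolipid synthesis, was lowest there at -0.31 ± 0.15, with -0.13 and -0.23 on CO and -0.30 and -0.69 on OA.

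For fatty acid oxidation genes the sign of the median depended on the CO pool. Pdk4, the kinase that turns cells from glucose to fatty acid use, had levels of -3.19 and -3.19 on CO and -3.45 and -2.96 on OA (-0.02 ± 0.22). Cpt1a, which admits fatty acids to mitochondria, had -0.20 and -0.15 against -0.01 and -0.07 (0.13 ± 0.19), and its 11 features were averaged. Ppara itself had a difference of 0.10 ± 0.17 and Angptl4, an inhibitor of lipoprotein lipase, of 0.03 ± 0.42. Over the 35 tested genes the median was 0.029 and 20 differences were positive. Both OA pools were higher in 3 (15.4% of all genes) and lower in 3 (13.8% of all genes). Without CO pool 1 the median was 0.10, with 25 of 35 positive, and without CO pool 2 it was -0.065, with 10 of 35. All 35 intervals lay within 2-fold, the widest limits being those of Angptl4 (-0.89 to 0.95).

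Genes of fatty acid uptake, binding and sensing were the least precisely measured of the lipid lists. Over 23 tested genes the median was 0.056, with 15 above 0, a range of -0.81 to 0.55 and 60.9% of intervals within 2-fold. Fabp1, a fatty acid binding protein of liver and gut epithelium, had levels of -0.97 and -3.41 on CO and -2.41 and -3.58 on OA (-0.81 ± 0.74, 95% interval -2.43 to 0.81). Fabp6, the ileal bile acid binding protein, had -0.92 and -1.50 against -0.88 and -0.43 (0.55 ± 0.66), and it and Cd36 are named here after their values were seen. The CO pools of Fabp1 lay further apart than the diets did. The fatty acid transporter Slc27a2 had a difference of -0.24 ± 0.16, the scavenger receptor Cd36 of 0.20 ± 0.38 and Ffar2, a receptor for short-chain fatty acids, of 0.25 ± 0.19. Without CO pool 2 the median was 0.017 and without CO pool 1 it was 0.098.

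Proliferation genes leaned downward on OA. Of 25 tested genes 21 had a negative difference, both OA pools lay below both CO pools in 12 (13.8% of all genes did) and above in 2, and the median was -0.092. Cdk1, the kinase that starts mitosis, had levels of 0.47 and 0.38 on CO and 0.24 and 0.15 on OA (-0.23 ± 0.12). Cdc20, an activator of the anaphase-promoting complex, had 0.37 and 0.38 against 0.05 and 0.17 (-0.27 ± 0.23), and Rrm2, a subunit of ribonucleotide reductase, had -1.15 and -1.76 against -1.67 and -2.15 (-0.46 ± 0.21). The diets did not overlap for Cdk1 and Cdc20 and did for Rrm2. Some members were nearer 0, among them Mcm3 (-0.02 ± 0.15), Pcna (0.08 ± 0.19) and the proliferation marker Mki67 (0.05 ± 0.17). Pcna and Mki67 were among the 4 genes above 0. On the 12 other arrays the list averaged 0.047. The median was between -0.12 and -0.078 in all 16 other settings, and 16 to 21 of 25 genes were negative when 1 of the 4 pools was left out. Of the 15 tested immediate early genes, among them Ier2 (-0.11 ± 0.10) and Egr1 (-0.12 ± 0.35), 10 were negative with a median of -0.089, but without OA pool 1 the median was -0.014.

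Of 45 lists, 35 had a median within 0.1 of 0, and 0 had a called member. Their 707 different tested genes held 16 with an unadjusted p under 0.05, or 2.26%, beside 1.55% of all genes. Lists of genes far below the reference had negative medians: pancreas enzymes -0.15 (12 of 13 below 0), kidney genes -0.20 (5 of 6) and liver genes -0.14 (4 of 5), and genes below -1 on the 12 other arrays had bin medians of -0.051 to -0.22. Kidney genes had a median of -0.062 without CO pool 1 and -0.35 without CO pool 2, and liver genes of -0.036 with quantile normalization. The part of the level trend in these values was not tested. Amy2a5, pancreatic amylase, had levels of -2.80 and -2.82 on CO and -3.17 and -3.16 on OA (-0.36 ± 0.15). Alas2, the haem synthesis enzyme of red blood cells, had -1.69 and -1.54 against -2.04 and -1.93 (-0.37 ± 0.11), in a list of 4 tested genes with a median of -0.20. The 23 tested chemokines had a median of 0.11, which was -0.014 without CO pool 1. The adipocyte list had a median of 0.15 that was 0.004 without CO pool 2 and 0.24 without CO pool 1, and Adipoq had 0.54 and 0.03 on CO against 0.75 and 0.75 on OA (0.47 ± 0.48). MHC class II genes had 9 of 10 differences above 0 with a median of 0.12, which was 0.033 with quantile normalization, 0.037 without CO pool 1 and 0.22 without CO pool 2. Collagen and stroma genes had 14 of 15 above 0 with a median of 0.087, which was 0.040 without CO pool 1 and 0.17 without CO pool 2. Chgb, a granule protein of enteroendocrine cells, had -0.66 and -0.67 on CO and -0.38 and -0.42 on OA (0.27 ± 0.10), in a list with a median of 0.039 that was -0.011 without CO pool 2. Xenobiotic metabolism genes, 28 of 48 above 0, had a median of 0.043. It was 0.16 without CO pool 1, with 34 of 48 above 0, and -0.088 without CO pool 2, with 19 of 48.

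In C57BL/6J mice the same diet contrast rested on a CO group whose 2 pools stood apart. They differed by a median of 0.21, with 422 genes over 2-fold, and pool 2 shared the value 0.61 among 326 features where the other arrays' shared values were between -0.056 and 0.13. With both pools, 4 of 24555 genes (0.0163%) were called, all higher on OA (smallest adjusted p = 0.0266): Mien1, Mrpl28, Mrpl54 and Ndufs8, which are named here after their values were seen. Without CO pool 1 the count was 1438 and without CO pool 2 it was 0. At an unadjusted p under 0.05 stood 2567 genes (10.5%), 6.47% higher and 3.98% lower, and 51.2% of all differences were above 0.

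The test of whether the diet difference itself differed between genotypes called 0 of 23462 genes (0%), with 1204 (5.13%) at an unadjusted p under 0.05, 2.08% with a more positive difference in Il10-/- mice and 3.05% with a more negative one, and a smallest adjusted p of 0.203. It called 75 genes without C57BL/6J CO pool 1 and 0 without CO pool 2. Across 23485 genes the differences in the 2 genotypes correlated at 0.125, as a description of genes that share the level trend. Of the 163 genes that were higher on OA at an unadjusted p under 0.05 in Il10-/- mice and were measured in both genotypes, 78 (47.9%) had the same sign in C57BL/6J mice, and of the 150 lower ones 92 (61.3%) did. Over all genes, 53.7% of those above 0 and 50.6% of those below 0 in Il10-/- mice did. Genes with a level below -3 had negative medians in Il10-/- (-0.22) and C57BL/6J mice (-0.27). The part of the level trend in these shares was not tested. Macrophage markers had a median of -0.022 in C57BL/6J mice, with 6 of 18 above 0, and complement genes of -0.087. Proliferation genes had a median of 0.14 and cholesterol synthesis genes of 0.28. The difference between genotypes (limma interaction) was 0.47 ± 0.14 for C1qc, 0.57 ± 0.20 for Mrc1 and 0.15 ± 0.16 for C1qa, and -0.81 ± 0.32 for Pdk4 and -0.56 ± 0.19 for Ptgs2, with adjusted p from 0.931 to 0.970.

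**Figure D5:**
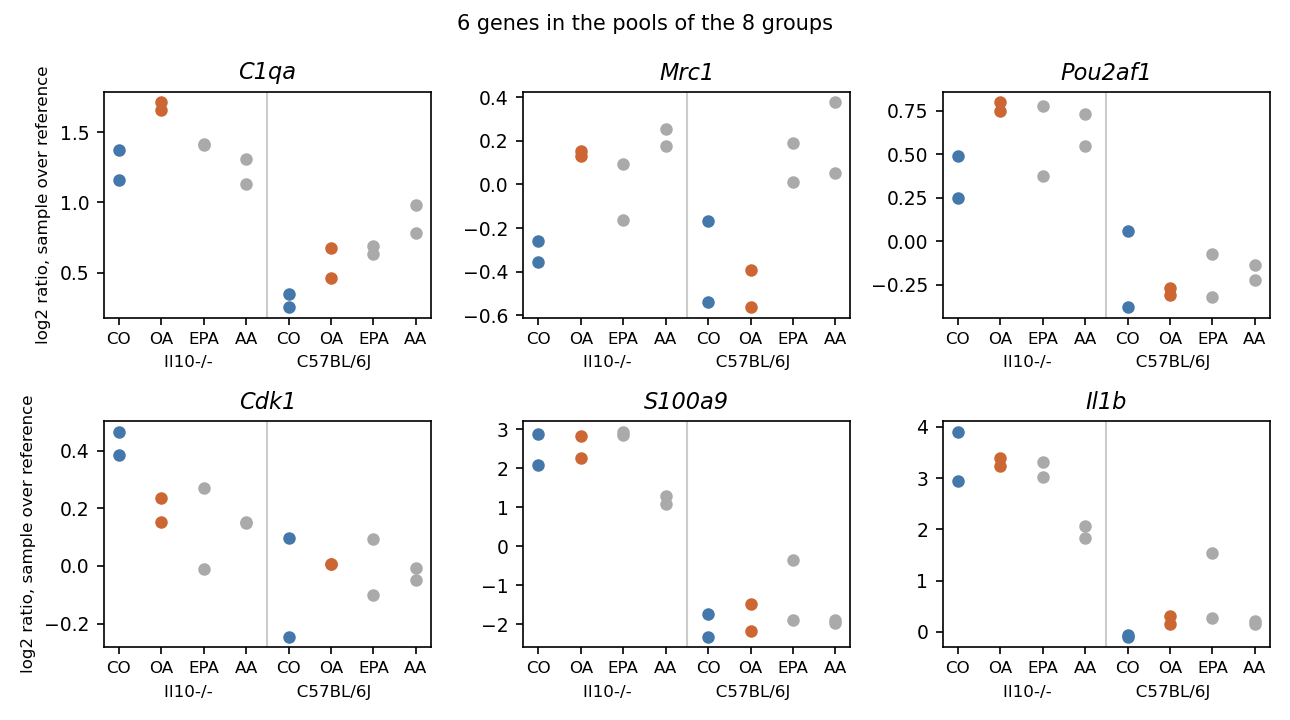
Levels (log2 ratio of sample to reference, vertical axis, with its own scale in each panel) of C1qa, Mrc1, Pou2af1, Cdk1, S100a9 and Il1b in the 2 pools of each of the 8 groups, with CO in blue, OA in orange and the EPA and arachidonic acid (AA) diets in grey. The Il10-/- OA pools of C1qa (1.66 and 1.71) are above the CO pools, and those of Il1b (3.23 and 3.39) lie between the CO pools (2.94 and 3.91).

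Set among the other Il10-/- groups, C1qa was at 1.41 in both EPA pools, with 1.31 and 1.13 in the AA pools, so the OA pools held its highest levels. Mrc1 had levels of -0.16 and 0.09 with EPA, and of 0.18 and 0.25 with AA, so for this gene the CO pools were the lowest and the OA pools lay between EPA and AA. Cdk1 had -0.01 and 0.27 with EPA and 0.15 in both pools with AA, and the CO pools (0.47 and 0.38) were the highest. These orders are descriptions, since the genes were chosen for their difference between OA and CO.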

How the data were processed

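Each of the 16 arrays held a pool of colon RNA (Cy3) and a common reference (Cy5), per the labels. The deposited values are the authors' own log2 ratios. limma is listed in the submitters' processing notes, with no version; how background, normalization and missing values were handled is not given in the sources used here. Of 44290 features 41883 had a value. GEO's platform annotation gave 32042 features 1 symbol and 47 several, and 31906 were matched by gene ID to current RefSeq names.

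Features at an array's most shared value were set to missing, features of a symbol averaged, and genes kept with values on both pools of both groups. limma 3.58.1 (R 4.3.3) fitted 8 group means over the 16 arrays (lmFit, eBayes, prior degrees of freedom 4.08), with Benjamini-Hochberg adjustment and calls at adjusted p under 0.05. The fit was tested on simulated data. Tables and figures used Python 3.11.15, pandas 2.3.3, numpy 2.4.6 and matplotlib 3.10.9. Genes shown are 12 per direction with the largest difference among those with unadjusted p under 0.05 and pools that do not overlap, 30 chosen genes of inflammation and lipid metabolism (28 had a value) and up to 4 members per list with the smallest p. Other list members given here, and all C57BL/6J called genes, were picked after their values were seen. Comparison, members and lists were chosen with earlier results of these data known. Alternatives were tied values kept, single features, other filters, quantile and scale normalization, array weights, robust eBayes, a replicate block, and each pool left out. Fits on 8 arrays of a genotype and with arrays at the same standard deviation were added after seeing the data. List members without a test are not reported.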

Additional observations from a re-analysis of the deposited data

How the results depend on the processing

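With 2 pools per group, no spot brightness and unknown background correction, dim or saturated spots could not be set apart, and small differences could not be resolved: the median half-width of a 95% interval was 0.27. In Il10-/- mice the count of called genes was 0 in the main analysis and in every other setting run. The genes at an unadjusted p under 0.05 numbered 386, and between 254 (genes measured on all 16 arrays) and 988 (array weights, smallest adjusted p 0.706) elsewhere, with 293 on arrays at the same standard deviation and 455 without OA pool 1, and 481 with that pool grouped by its source name. Array weights, fits on the groups compared (773) and on the 8 arrays of the genotype (666) raised it over 1.5 times, the cause of which was not tested. The median SE was 0.098, 0.094 and 0.103 in these, against 0.124 in the main analysis. The main fit shares 1 estimate of spread with all groups, among them C57BL/6J CO (median SD 0.149, against 0.069 in Il10-/- CO and 0.068 in Il10-/- OA). The 254 are 1.17% of the genes tested there, against 1.55%. All 24 genes of the largest differences kept their sign in every setting. Their choice largely fixed this, since pools that do not overlap keep the sign whichever pool is left out. Of 216 named genes, 157 kept their sign in every setting. The sign of the list median was kept in all 16 settings by 17 of 45 lists. In C57BL/6J mice 4 called genes became 0 with features taken singly, only the groups compared, scale normalization, array weights, the replicate block and only the 8 arrays of the genotype, and leaving out a pool gave 0 to 1438 (1438 without CO pool 1). The interaction gave 0 to 75 called genes when a pool was left out (75 without C57BL/6J CO pool 1). The block of pool numbers left the Il10-/- count at 0 (416 at an unadjusted p under 0.05). The deviations of same-numbered pools correlated at over 0.1 in 11 of 28 pairs of groups and under -0.1 in 7 (Il10-/- OA and CO 0.162). These mixed signs show no pairing common to all groups. Whether some same-numbered pools shared a batch cannot be told from them.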
